A study of Mus musculus with 6 samples.

Results

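The genes described here are 10 immediate early transcription factor genes, the AP-1 genes Fos, Fosb, Fosl1, Fosl2, Jun, Junb and Jund and the Egr genes Egr1, Egr2 and Egr3, among 18193 genes that the arrays read under a single symbol. All 10 were read, by 16 probe sets in all. Each gene is represented by its brightest probe set, judged by the mean of 6 arrays, and the other 6 probe sets served as checks. The genes were chosen by name, and earlier results of these data were known at the time.

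Commercially supplied mouse mesenchymal stem cells were grown in dishes with 1 µM rosiglitazone, 5 µg/ml insulin, 100 µM isobutylmethylxanthine and 1 µM dexamethasone, renewed 48 h before exposure, a mixture that is often given to induce fat cell formation. Irradiated cultures were exposed for 2 h to a continuous-wave terahertz laser, a far-infrared source, at 2.52 THz (118.8 µm). Control cultures, which carried the same compounds, stood beside them, with both kept at 26 to 27 °C. There were 3 independent experiments with 1 irradiated and 1 control culture each, RNA was taken as soon as exposure ended, and each culture was read on 1 Affymetrix array.

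AP-1 is a family of dimers. Fos proteins pair with Jun proteins but not with each other, whereas Jun proteins also pair among themselves, and the dimers bind the site TGACTCA and its relatives. Egr proteins are zinc finger factors that bind GC-rich sites. Serum, growth factors, cyclic AMP and many kinds of stress switch these genes on within minutes, through serum response factor at CArG boxes and through CREB at cyclic AMP response elements, and the transcripts of Fos and Egr1 usually peak and fade while a stimulus is still present. In mouse preadipocyte lines Egr2, also called Krox20, promotes fat cell formation and Egr1 opposes it. The comparison asks whether these stimulus-responsive transcripts differed, at the end of the exposure, between each irradiated culture and the control beside it.

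Promoters of 3 of the genes are shown, picked because their windows hold matches to elements through which such stimuli are known to act. The sequences are RefSeq windows on GRCm38.p6 from 250 bases before to 50 after an annotated start, and 7 of the 10 genes had such a window in the table used. Capitals mark matches, on either strand, to the cyclic AMP response element core TGACGT, to TGACATCA, the variant AP-1 site of the Jun promoter, and to the CArG box. Fos lies at chr12:85473640-85473939 on the plus strand, Jun at chr4:95052173-95052472 on the minus strand, and Egr2, at the third of its 5 listed starts, at chr10:67537619-67537918 on the plus strand.
Fos: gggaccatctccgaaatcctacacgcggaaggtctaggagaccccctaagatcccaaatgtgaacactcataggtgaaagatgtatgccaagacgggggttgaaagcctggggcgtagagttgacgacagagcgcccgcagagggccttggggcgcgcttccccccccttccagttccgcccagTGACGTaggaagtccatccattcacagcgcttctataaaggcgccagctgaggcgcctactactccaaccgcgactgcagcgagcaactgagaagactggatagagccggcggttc
Jun: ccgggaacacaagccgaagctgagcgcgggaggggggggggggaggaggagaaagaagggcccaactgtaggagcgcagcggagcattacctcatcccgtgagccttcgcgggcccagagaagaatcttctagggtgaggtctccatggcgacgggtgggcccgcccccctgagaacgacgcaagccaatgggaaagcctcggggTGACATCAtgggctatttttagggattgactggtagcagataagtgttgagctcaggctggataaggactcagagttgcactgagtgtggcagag
Egr2: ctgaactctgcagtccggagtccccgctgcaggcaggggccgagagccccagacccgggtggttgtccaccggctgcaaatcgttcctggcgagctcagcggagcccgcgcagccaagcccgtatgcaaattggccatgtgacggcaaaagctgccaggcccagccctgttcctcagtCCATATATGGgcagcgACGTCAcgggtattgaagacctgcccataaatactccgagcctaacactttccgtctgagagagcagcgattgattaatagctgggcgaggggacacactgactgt
The Fos match began 66 bases before the start and the Jun match 45 bases before it. In Egr2 a CArG box began 72 bases before the start and a TGACGT core on the opposite strand 56 bases before it. Among 32851 promoter windows of this length 7.51% held the TGACGT core, 3.62% held TGACATCA and 1.63% held a CArG box. The AP-1 sites TGACTCA and TGAGTCA, found in 5.20% of windows, had no match in the windows of these 7 genes. The Egr sites GCGTGGGCG and GCGGGGGCG, found in 3.47%, matched once in Fosb and once in Fosl2. Of the other Egr2 starts, starts 4 and 5 had the same letters for both matches. Start 2 had another CArG box, CCTTTTTTGG, and the remaining start had no match. The windows reach 250 bases before a start, so elements further upstream, in Fos or any other gene, are not seen. A match is a string of letters and was not tested for binding.

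No AP-1 or Egr gene was called as higher or lower after irradiation. limma, blocked by experiment and adjusted by Benjamini-Hochberg over all 45037 probe sets, called 0 of the 10 genes and 0% of all probe sets, and every one of the 16 probe sets of these genes had an adjusted p of 0.995. At an unadjusted p under 0.05 limma gave 1 of the 10 genes, Egr3, and 1 of the 6 check probe sets, where 3.77% of all probe sets reached it. The largest mean difference among the 10 was 0.26 log2 units, for Egr3, and the lowest was -0.090, for Jund. A log2 difference of 1 is a change of 2-fold. The 95% confidence intervals of all 10 genes lay within 1.5-fold in either direction, between 0.784-fold and 1.41-fold. Each interval is for 1 gene, is not adjusted for the number of genes, and bounds the change in the normalised array value at the end of the exposure. These are bulk cultures, in which fewer cells of a type and less RNA per cell cannot be told apart.

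The median difference of the 10 genes was -0.053 log2 units, against -0.010 over all 18193 genes. In experiments 1 to 3 the median over the 10 was -0.010, 0.010 and -0.065 (SD 0.039), with 4, 6 and 4 genes above 0. The sign of the median was not stable, since it was 0.015 without experiment 3, and it was -0.0033 with the mean over each gene's probe sets. Averaged over the experiments, 4 were above 0 and 6 below, where 48.2% and 50.4% of all probe sets were. Egr3 was the single gene above 0 in every experiment, and Junb and Jund were below 0 in every experiment. Of all probe sets 9.87% were above 0 and 11.6% below 0 in every experiment. The plot of the levels on the 6 arrays shows each pair.

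**Figure D1:**
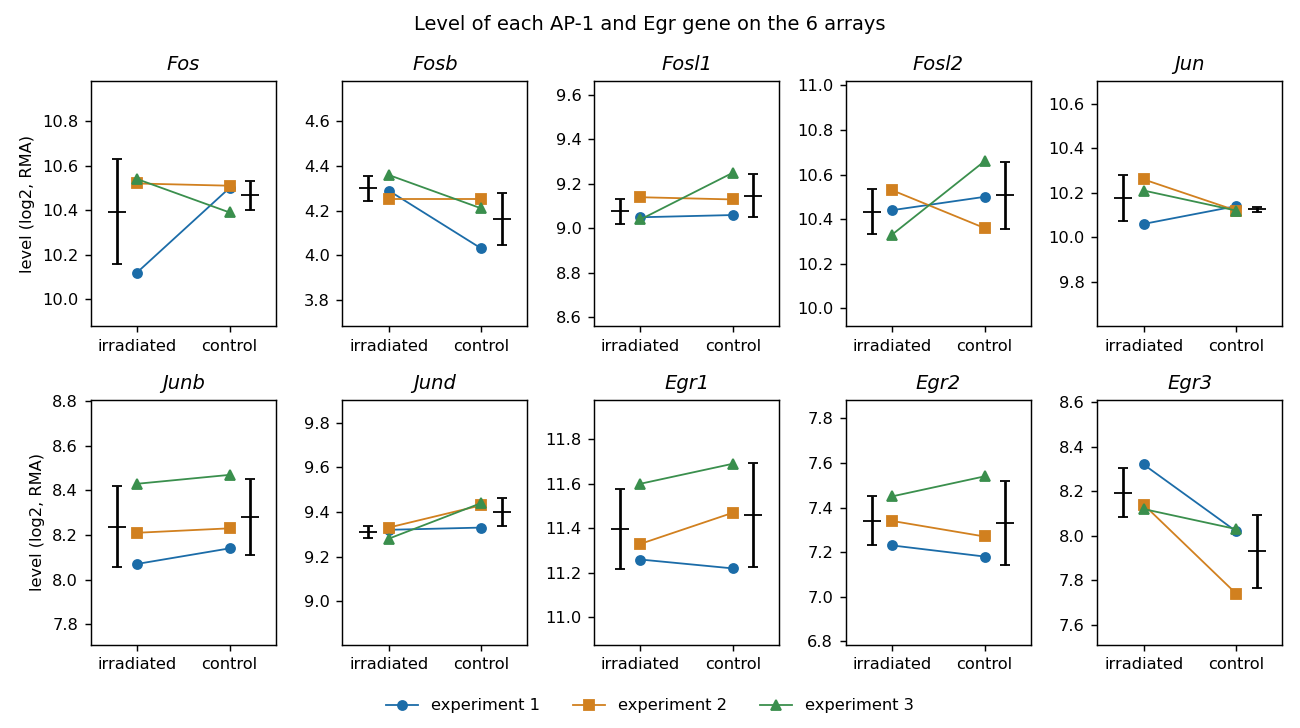
Level of each AP-1 and Egr gene (log2, RMA) in irradiated cultures (left) and control cultures (right), with a line joining the 2 cultures of an experiment and a bar for the mean ± SD of each group (n = 3); every panel spans the same number of log2 units. Egr3 is the gene whose irradiated values, 8.12 to 8.32, all lie above its control values, 7.74 to 8.03. The same was seen in 3.77% of all probe sets.

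Among the Fos genes, Fos itself was bright and had no common direction. It encodes c-Fos, the classical immediate early factor. Its level (probe set 1423100_at) was 10.12, 10.52 and 10.54 in irradiated cultures of experiments 1 to 3, against 10.50, 10.51 and 10.39 in their controls. The groups overlapped, and the irradiated culture of experiment 1 stood apart as the lowest of the 6. The mean difference was -0.073 log2 units (SE 0.12, n = 3 pairs), with -0.38, 0.010 and 0.15 in experiments 1 to 3. Leaving out experiment 1 put Fos at 0.080, on the other side of 0.

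Fosb, a Fos relative that can replace it in the dimer, gave a dim signal. Probe set 1422134_at read 4.29, 4.25 and 4.36 in irradiated cultures, against 4.03, 4.25 and 4.21 in controls. That is below the median gene level of 6.46, and the other 9 genes lay at or above it. The mean difference was 0.14 (SE 0.094), with both cultures of experiment 2 at the same value. RMA values of dim probe sets tend to understate changes, so the Fosb interval of -0.083 to 0.36 bounds less than those of the bright genes.

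Fosl1 and Fosl2 encode Fra-1 and Fra-2, which lack the strong activation domain of c-Fos and whose transcripts usually last longer. Fosl1 (1417487_at) stood at 9.05, 9.14 and 9.04 in irradiated cultures, against 9.06, 9.13 and 9.25 in controls. Its mean difference was -0.070 (SE 0.093), with -0.010, 0.010 and -0.21 in experiments 1 to 3. The check probe set of Fosl1 (1417488_at), much dimmer at a mean level of 5.82, went the other way in every experiment. It read 5.87, 5.96 and 5.98 in irradiated cultures, against 5.71, 5.83 and 5.59 in controls. Its groups did not overlap, at a mean difference of 0.23 (SE 0.095) and a Benjamini-Hochberg adjusted p of 0.995 (limma). Irradiated values all above the controls were seen in 3.77% of all probe sets. The 2 probe sets of Fosl1 disagree, and their mean put the gene at 0.078.

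Fosl2 split by experiment. Probe set 1437247_at read 10.44, 10.53 and 10.33 in irradiated cultures, against 10.50, 10.36 and 10.66 in controls. The differences were -0.060, 0.17 and -0.33 in experiments 1 to 3, with a mean of -0.073 (SE 0.11). In experiment 3 the control gave the highest of the 6 values and the irradiated culture the lowest. The dimmer check probe set of Fosl2 averaged -0.11 (SE 0.097), with differences of -0.28, -0.040 and 0 in experiments 1 to 3, so that the 2 probe sets had different experiments furthest from 0.

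The Jun genes, whose products are the obligate partners of the Fos proteins, had mean differences between -0.090 and 0.050 log2 units. Jun, which encodes c-Jun, the target of the JNK kinases, read by probe set 1417409_at, stood at 10.06, 10.26 and 10.21 in irradiated cultures, against 10.14, 10.12 and 10.12 in controls. Its controls were within 0.02 of each other, and the irradiated cultures lay on both sides of them. The mean difference was 0.050 (SE 0.092). The check probe set of Jun gave the same signs in each experiment, at -0.18, 0.14 and 0.11, with a mean of 0.023 (SE 0.10).

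Junb, whose product is a weaker activator than c-Jun and can restrain it, stood (1415899_at) at 8.07, 8.21 and 8.43 in irradiated cultures, against 8.14, 8.23 and 8.47 in controls. Within each experiment the irradiated culture was lower by no more than 0.07, and the mean difference was -0.043 (SE 0.085). Jund, which is expressed more constantly than the other Jun genes and restrains growth in mouse fibroblasts, stood (1449117_at) at 9.32, 9.33 and 9.28 in irradiated cultures, against 9.33, 9.43 and 9.44 in controls. Its groups touched without separating, and the mean difference was -0.090 (SE 0.088). The check probe set of Jund, dim at 4.13, was also below 0 in all 3 experiments, with a mean of -0.19 (SE 0.098).

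Among the Egr genes, Egr1 gave a signal above that of 96.5% of genes, a place on the array's scale that depends on its probes as well as on the RNA. Probe set 1417065_at read 11.26, 11.33 and 11.60 in irradiated cultures, against 11.22, 11.47 and 11.69 in controls. The groups overlapped throughout, and the mean difference was -0.063 (SE 0.090), with 0.040 in experiment 1, -0.14 in experiment 2 and -0.090 in experiment 3. Egr2 (1427683_at) read 7.23, 7.34 and 7.45 in irradiated cultures, against 7.18, 7.27 and 7.54 in controls, with a mean difference of 0.010 (SE 0.089). Both probe sets of Egr2 were above 0 in experiments 1 and 2 and below 0 in experiment 3.

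Egr3, which acts in nerve, muscle spindle and lymphoid cells and is itself induced downstream of other early signals, had the largest difference of the 10. Probe set 1436329_at read 8.32, 8.14 and 8.12 in irradiated cultures, against 8.02, 7.74 and 8.03 in controls. The groups did not overlap, and the control of experiment 2 was the lowest of the 6. The irradiated cultures averaged 8.19 ± 0.11 and the controls 7.93 ± 0.16 (SD, n = 3 each). The mean difference was 0.26 log2 units (SE 0.098, 95% confidence interval 0.035 to 0.49), or 1.20-fold, with 0.30, 0.40 and 0.090 in experiments 1 to 3. It did not pass, at a Benjamini-Hochberg adjusted p of 0.995 (limma). Among the 10 genes this was the 1 with groups apart. Of all probe sets 3.77% had irradiated values all above the controls.

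The check probe set of Egr3 (1421486_at) had another pattern. It read 6.23, 6.11 and 6.10 in irradiated cultures, against 5.73, 6.26 and 6.15 in controls. The irradiated culture was thus 0.50 higher in experiment 1 and lower in experiments 2 and 3, by -0.15 and -0.050 as differences, with a mean of 0.10 (SE 0.14). The mean over both probe sets of Egr3 was 0.18, and without experiments 1, 2 or 3 in turn the brighter probe set alone ranged from 0.20 to 0.35.

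**Figure D2:**
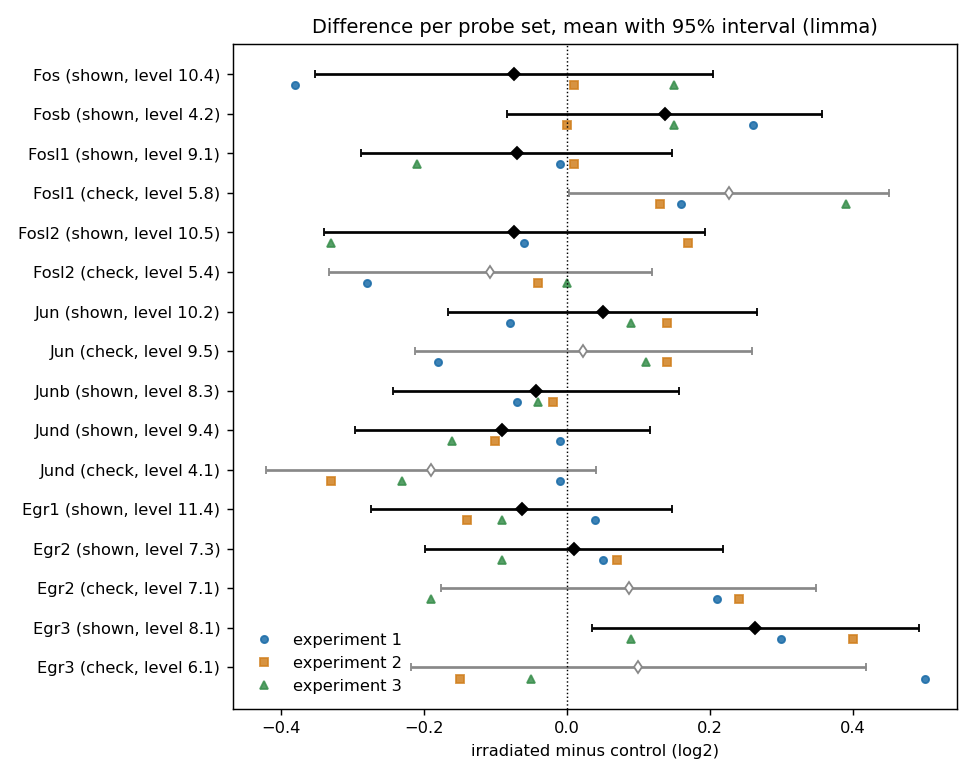
Irradiated minus control (log2) for all 16 probe sets of the 10 genes, with the limma mean and its 95% confidence interval (filled black diamonds for the probe set shown in the text, open grey diamonds for check probe sets) and the 3 experiments as coloured points beneath. The intervals of Egr3 (0.035 to 0.49) and of the dim check probe set of Fosl1 (0.0033 to 0.45) are the ones that do not reach 0, and none of the 16 passed after adjustment.

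For 3 of the 10 genes the experiments lay further apart than the 2 cultures of any pair. For Junb, Egr1 and Egr2 both cultures of experiment 1 lay below all cultures of experiment 2, and these below both cultures of experiment 3. The experiment means of Egr1 spanned 0.41 log2 units, against a largest difference of 0.14 within a pair. The span was 0.35 against 0.07 for Junb and 0.29 against 0.09 for Egr2. For the other 7 genes the largest difference within a pair exceeded the span between experiments. How often the span exceeds the pair difference over all probe sets was not computed. The 3 experiments were apart in this order in 1.37% of all probe sets, and apart in any order in 5.58%. The order was noticed in the data and is a description.

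The moderated F test of the experiment terms in limma called 0 of the 10 genes and 0% of all probe sets after Benjamini-Hochberg adjustment. At an unadjusted p under 0.05 it gave Egr1 (0.0206) and Junb (0.0329), and 4.91% of all probe sets, and the adjusted p was 0.981 for both in limma. Egr2 had an unadjusted p of 0.0795 in the same limma test. Its dimmer check probe set, at 7.05, 7.21 and 7.10 in irradiated and 6.84, 6.97 and 7.29 in control cultures, did not separate the experiments. An experiment has 2 arrays here, and the experiments have no time order in the labels. Over all probe sets the values do not show the pairing, by correlations given with the processing.

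Of the 109 measured genes in the pathway lists, 7 had the same order of experiments, where 1.58% of all genes had it. That order was taken from Junb, Egr1 and Egr2 after their values were seen. Other orders were not counted in the lists or the marker lists. The 7 genes are named after their values were seen. Ier2, an immediate early nuclear factor, read 9.11, 9.28 and 9.48 in irradiated cultures, against 9.16, 9.34 and 9.57 in controls. Nr4a1, an orphan nuclear receptor induced with the Egr genes, read 8.88, 9.10 and 9.24 in irradiated cultures, against 8.76, 9.09 and 9.38 in controls. The cytokine gene Il6, a target of AP-1, read 5.22, 6.22 and 6.82 in irradiated cultures, against 5.75, 6.51 and 6.94 in controls. The other four were Sik1, Phlda1, Spry2 and Mef2a, and none of the 7 passed the F test, with adjusted p values in limma from 0.329 for Il6 upwards.

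The summed level of the macrophage markers followed the same order of experiments, but not every marker did. Their summed level (log2 of the sum of the linear values of 12 markers) was 15.49, 15.78 and 15.93 in irradiated cultures, against 15.59, 15.75 and 15.84 in controls. Such a sum weighs the brightest markers most. In 5 of the 12, Adgre1, Fcgr3, Tyrobp, Mrc1 and Laptm5, the experiments were apart in the same order, against 1.58% of all genes. The rest did not separate in this way. For Cd14 (10.34) and Itgam (7.76) the control of experiment 3 lay below both cultures of experiment 2. Of the 12 markers 11 were at least as bright as the median gene. Mean levels over all arrays ran from 4.70 for Cd163, the dim marker, to 14.17 for Lyz2. Csf1r stood at 12.78, Tyrobp at 12.59, Mrc1 at 12.31, Cd68 at 12.28 and Fcgr3 at 12.27. The leukocyte gene Ptprc was dimmer than these, at 9.82. The 3' minus 5' signal of the actin control probe sets, a sign of RNA integrity, was 0.57, 0.51 and 0.50 in irradiated cultures. In controls it was 0.54, 0.54 and 0.68. For Gapdh it was -0.09, -0.09 and -0.10 in irradiated cultures, against -0.08, -0.08 and 0.11 in controls. The control of experiment 3 thus stood apart on both. That array enters every irradiated minus control difference of experiment 3, those of the AP-1 and Egr genes included. The part of RNA integrity in those differences was not tested. Nor was the part of macrophage markers and of RNA integrity in the order of experiments.

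**Figure D3:**
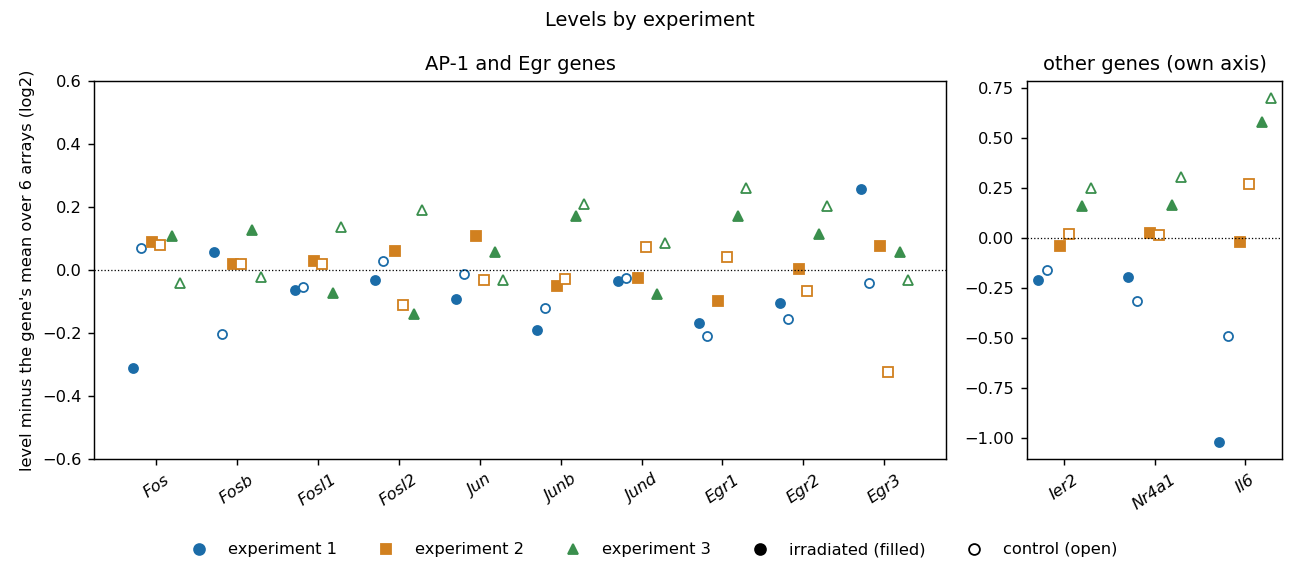
Level minus the gene's own mean over 6 arrays (log2) for the 10 genes (left) and for Ier2, Nr4a1 and Il6 (right, own axis), with irradiated cultures filled and controls open, by experiment. In Junb, Egr1, Egr2, Ier2, Nr4a1 and Il6 the pairs of experiments 1, 2 and 3 do not overlap, whereas the other 7 AP-1 and Egr genes do not separate in this way.

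Of the other cell types checked, mesenchymal stromal markers were bright in 12 of 13 cases, meaning at or above the median gene level, fat cell markers in 9 of 9, smooth muscle markers in 4 of 6, epithelial markers in 1 of 7 and endothelial markers in 0 of 8. The summed levels of stromal markers ran from 15.11 to 15.22 in irradiated and from 15.02 to 15.27 in control cultures, those of fat cell markers from 15.73 to 15.99 and from 15.80 to 16.00, and those of smooth muscle markers from 13.18 to 13.36 and from 12.76 to 13.35. The dim stromal marker was Thy1, which encodes the surface protein CD90 used to define these cells, at 3.88. The bright ones include Vim, Col1a2 and Cd44, which other mesenchymal cells also express, so that brightness does not settle which cells were present. Array medians lay between 5.01 and 5.04 log2 units. Precision is set by the number of arrays, since there is no read depth.

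The medians of fat cell and smooth muscle markers lay on opposite sides of 0, and limma called none of either list. Of the 9 fat cell markers 0 were above 0 and 9 below, with a median of -0.16, where 53.3% of all genes were below 0. Their medians in experiments 1 to 3 were 0.090, -0.61 and 0.010, so that the shift lay in experiment 2. Of the 6 smooth muscle markers 5 were above 0, with a median of 0.22 and medians of -0.30, 0.47 and 0.40 in experiments 1 to 3. Egr3, at 0.30, 0.40 and 0.090, differed most in experiment 2, the experiment in which both lists were furthest from 0. Its check probe set was at -0.15 in experiment 2 and differed most in experiment 1, at 0.50. In experiment 1 Egr3 was above 0 and the smooth muscle median below 0. The part of these cell types in the values of the AP-1 and Egr genes was not tested.

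The genes around AP-1 and Egr were called in no case either. The 5 lists, of partners, upstream factors, feedback inhibitors, other immediate early genes and target genes, held 122 entries, of which 109 genes were measured here. limma with Benjamini-Hochberg called 0 of them in either direction, and at an unadjusted p under 0.05 it gave 0 higher and 1 lower, where 1.17% of all genes were higher and 1.4% lower at that p. Of the 109, 56 were above 0 and 49 below, against 45.2% and 53.3% of all genes, and their median was 0.0067 log2 units. The values below are mean differences in log2 units over 3 pairs, and the Benjamini-Hochberg adjusted p (limma) was 0.995 for each.

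Partners and relatives, basic leucine zipper factors that can enter AP-1 dimers or compete with them, had 6 of 11 genes above 0 and a median of 0.017. Atf2, a partner of c-Jun, stood at 0.087 (SE 0.091) and the small Maf factor Mafk at 0.080 (SE 0.087). Atf3, a stress-induced repressor, stood at -0.12 (SE 0.099) and Maff at -0.12 (SE 0.13). Both of these were furthest from 0 in experiment 3, at -0.29 and -0.42.

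The upstream kinases and transcription factors had 9 of 23 genes above 0 and a median of -0.030, and all 23 were at least as bright as the median gene. Srf, the serum response factor, known to bind CArG boxes, read 8.31, 8.39 and 8.27 in irradiated cultures, against 8.52, 8.35 and 8.35 in controls, a mean difference of -0.083 (SE 0.093). Map2k1, the kinase MEK1, stood at 0.097 (SE 0.091) and Mapk7, or ERK5, at 0.083 (SE 0.085). Stat3, a cytokine-activated factor, stood at -0.20 (SE 0.10), with 0.020, -0.25 and -0.37 in experiments 1 to 3, and the kinase Rps6ka3 at -0.17 (SE 0.11).

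Feedback inhibitors, which are induced with the early genes and end the response, had 11 of 22 genes above 0 and a median of 0.0017. Dusp1, a phosphatase that inactivates stress kinases, read 10.55, 10.82 and 10.74 in irradiated cultures, against 10.76, 10.57 and 10.80 in controls, a mean difference of -0.0067 (SE 0.11). Nab2, the corepressor that Egr1 induces and that binds it, stood at 0.060 (SE 0.096). Zfp36, which destabilises short-lived messages, was lower in each experiment, at -0.17, -0.26 and -0.16, with a mean of -0.20 (SE 0.087). Errfi1, an inhibitor of the EGF receptor, stood at 0.16 (SE 0.10), the phosphatase gene Dusp4 at 0.12 (SE 0.11) and Dusp10, a phosphatase of JNK and p38, at -0.18 (SE 0.099).

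The other immediate early genes had 16 of 31 members above 0 and a median of 0.0067. Ier2 differed by -0.067 (SE 0.085) and Myc, the growth regulator, by 0.017 (SE 0.090). Ier3 stood at 0.14 (SE 0.12) and the kinase gene Plk2 at 0.083 (SE 0.086). The orphan receptor gene Nr4a2 stood at -0.11 (SE 0.11) and the kinase gene Pim1 at -0.087 (SE 0.088). The lowest of the list was Egr4, at -0.17 (SE 0.089), named outside the rule because its level of 5.82 is below the median gene. It was below 0 in every experiment, at -0.15, -0.27 and -0.10, as were 11.6% of all probe sets.

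Target genes of AP-1 and Egr had 14 of 22 members above 0 and a median of 0.027. Ereg, an EGF receptor ligand, stood at 0.17 (SE 0.11) and the chemokine gene Ccl2 at 0.14 (SE 0.14), with -0.19, 0.53 and 0.080 in experiments 1 to 3. Hmox1, heme oxygenase, stood at -0.067 (SE 0.087) and Plau, the urokinase gene, at -0.060 (SE 0.12). Il6, named outside the rule because it was the 1 gene at an unadjusted p under 0.05, differed by -0.31, with -0.53, -0.29 and -0.12 in experiments 1 to 3, at a level of 6.24 below the median gene.

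**Figure D4:**
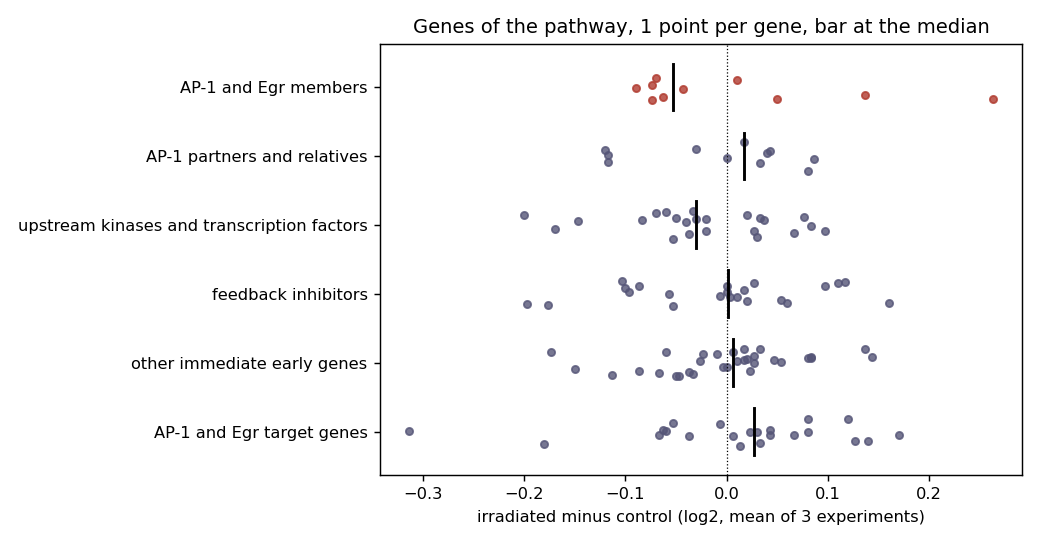
Irradiated minus control (log2, mean of 3 experiments) for the 10 AP-1 and Egr genes (top row) and for the measured genes of the 5 lists, 1 point per gene, with a bar at each median. The medians run from -0.053 for the 10 genes to 0.027 for the target genes, and Il6, at -0.31, is the point furthest from 0.

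Over the 6 arrays, the genes whose values most resembled Fos, among those at least as bright as the median gene, were Mapk8ip3, a scaffold of the JNK pathway (Pearson r 0.99), Otud3 (0.98) and Ufsp2 (0.98). Those most like Jun were Vmp1 (0.98), Med11 (0.98) and Pbk (0.97), and those most like Egr1 were Trim41 (0.99), Cyth4 (0.99) and Ier2 (0.98). These are the highest of 9098 genes compared, on 6 arrays that come in 3 pairs, and 108, 59 and 91 genes had an r over 0.9 with Fos, Jun and Egr1 in that order. The likeness to Fos rests mainly on the low value of the irradiated culture of experiment 1, where Mapk8ip3 read 6.61 against 6.74 to 6.82 on the other arrays, and the likeness to Egr1 on the order of the experiments.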

How the data were processed

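The authors deposited log2 values, 1 per probe set and array, made with RMA (background correction, quantile normalization, summary of the probes), per the submitters' processing notes, which also name the affy package and limma. No label states the log base, and the range of 1.73 to 14.53 was taken as log2. The values are rounded to 2 decimals. Quantile normalization hides a change common to all transcripts. Detection calls were not used here, so no probe set is called absent.

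The 64 array control probe sets were left out and 45037 were tested, with no filter. Symbols came from the platform annotation, with 34945 probe sets under 1 symbol. limma (version 3.58.1 in R 4.3.3; lmFit, eBayes) fitted irradiated minus control with the experiment as a block, and the experiment terms were tested by the moderated F. A call is a Benjamini-Hochberg adjusted p under 0.05 over all probe sets. Intervals are the moderated ones at 95%. Of the fit's degrees of freedom 2 are residual and 5.32 come from eBayes. Pairs follow the series' design text. The correlation of deviations from the group means was 0.087, -0.065 and -0.029 for the pairs of experiments 1 to 3. For cultures of different experiments it ran from -0.073 to 0.113, so the values themselves do not show the pairing. Scripts were tested on simulated data.

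The members, lists and tests were chosen with earlier results of these data known. Named list genes are up to 2 with the largest difference in each direction at or above the median gene level, plus Srf, Atf3, Dusp1, Nab2, Zfp36, Ier2 and Myc, and the 3 genes most like Fos, Jun and Egr1. Alternatives were no block, a random block, a filter on dim probe sets, eBayes with trend and robust, 1 probe set per gene, the mean over a gene's probe sets, centred arrays, and each experiment left out.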

Additional observations from a re-analysis of the deposited data

How the results depend on the processing

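The count of AP-1 and Egr genes called for irradiation was 0 in limma under every alternative run, as were the counts for all probe sets and for the list genes. Without the replicate block limma called 0 of 45037 probe sets and 0 of the 10 genes, with 1841 probe sets at an unadjusted p under 0.05, against 1696 with it, so the pairing changed no call. The random replicate block gave 0 and 1703. In the F test of the experiments 0 of the 10 genes were called under every alternative run, while eBayes with trend and robust called 2 probe sets in all, of Lyve1 and Saa3, and the mean over each gene's probe sets, an alternative for this test chosen after seeing the data, called 1 gene, Lyve1; both are named after their values were seen. The median difference over the 10 genes, -0.053, was -0.0033 with the mean over each gene's probe sets, and -0.040 to 0.015 with 1 experiment left out, the last without experiment 3. With that mean over probe sets Fosl1 stood at 0.078 in place of -0.070. With 1 experiment left out, Fos ranged from -0.19 to 0.080, Fosl2 from -0.20 to 0.055 and Egr2 from -0.020 to 0.060, on both sides of 0: Fosl2 turned without experiment 3, and Egr2 without experiment 1 or 2. Fosl1 ranged from -0.11 to 0, the last without experiment 3. Egr3 (0.20 to 0.35), Fosb (0.075 to 0.21), Jun (0.0050 to 0.12), Junb (-0.055 to -0.030), Jund (-0.13 to -0.055) and Egr1 (-0.12 to -0.025) kept their sign, but Jun, Jund, Egr1 and Fosb moved by over 1.5 times. The cause of these shifts was not tested. Precision is limited by 3 pairs, and dim probe sets such as that of Fosb bound changes least.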
